A study of Mus musculus with 30 samples.

Results

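The genes described here encode the RNA splicing machinery and related RNA-binding proteins in mouse blood. They were chosen by symbol, as probes with a single platform gene symbol beginning with Srsf, Snrp, Hnrnp, Sf3a, Sf3b, Prpf, U2af, Lsm followed by a digit, or Ddx followed by a digit. This gave 71 genes, measured by 73 probes, of the 9616 gene symbols on the array. Of the 71, 43 had values in at least 3 of 4 untreated, day 1 and day 2 samples and at least 2 of 3 day 5 samples. These 43 were tested among 6515 features, 4725 of them with a symbol. The rule uses symbols and no measured difference, but it was set with earlier results of these data known.

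The blood came from DBA/2 mice, an inbred strain. Peripheral blood leukocytes of 4 untreated samples were compared with 4 samples drawn 1 day, 4 drawn 2 days and 3 drawn 5 days after an intraperitoneal injection of 83 mg per kg cyclophosphamide, an alkylating drug that damages DNA and kills dividing blood cell precursors. Each sample was measured in 2 technical replicates as a ratio to bone marrow RNA of the same strain. The labels call this marrow pool untreated in one field and name cyclophosphamide in another. They give no age or sex, and no vehicle injection is named for the controls. The design text calls the replicates independently harvested and speaks of 2 replicates per array, but does not say whether a sample is 1 mouse or several.

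Splicing removes introns from pre-mRNA in the spliceosome, which is built from small nuclear ribonucleoproteins (snRNPs). Each of these holds a small RNA and a ring of Sm or LSm proteins, the SF3A, SF3B and U2AF proteins recognise the branch site and the 3′ splice site, and PRPF proteins drive the later steps. SR proteins (Srsf) and heterogeneous nuclear ribonucleoproteins (hnRNPs) bind exons and introns and help to choose splice sites, often in opposite directions, and hnRNPs also act on mRNA export, translation and decay. DDX proteins are a family of RNA-unwinding ATPases, of which some act in splicing, others in ribosome assembly, and others in translation or decay. In lymphocytes, regulated splicing of the Cd45 transcript by Hnrnpll is a standard example of this control.

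All values are log2 ratios of blood over marrow, in columns centred near 0, so a change is relative to the other transcripts of the same sample and not an absolute amount. The number of arrays limits the precision. The labelled cell type was set against blood cell markers: in untreated samples the mean log2 ratio of the complete members of the T cell list lay between 0.56 and 1.47 and that of the monocyte list between 0.66 and 1.20, against -1.93 to -0.94 for the cell division list. The platelet list stood highest, between 2.00 and 2.18, the B cell list lay between -0.02 and 0.36, and the mature neutrophil list lay below the marrow level, between -0.77 and -0.33. In these mixed leukocytes, fewer cells of a type and less RNA per cell cannot be told apart.

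Over the 4 groups, the splicing and hnRNP genes as a set did not differ more often than other features. In the moderated F test of limma, which tests equality of the 4 group means, 7 of 43 members (16.3%) had an adjusted p under 0.05, which is what called means below, against 22.7% of all features. The 7 were Hnrnph2 (adjusted p = 0.0010), Hnrnpd (adjusted p = 0.0048), Lsm4 (adjusted p = 0.023), Hnrnpll (adjusted p = 0.026), Hnrnpdl (adjusted p = 0.030), Hnrnpr (adjusted p = 0.031) and Hnrnpa2b1 (adjusted p = 0.038). Thus 6 of the 7 were hnRNPs, a family with 10 tested members. The F test called 4 members without day 1 replicate 1, 4 without day 2 replicate 2 and between 5 and 9 without any other sample.

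**Figure D1:**
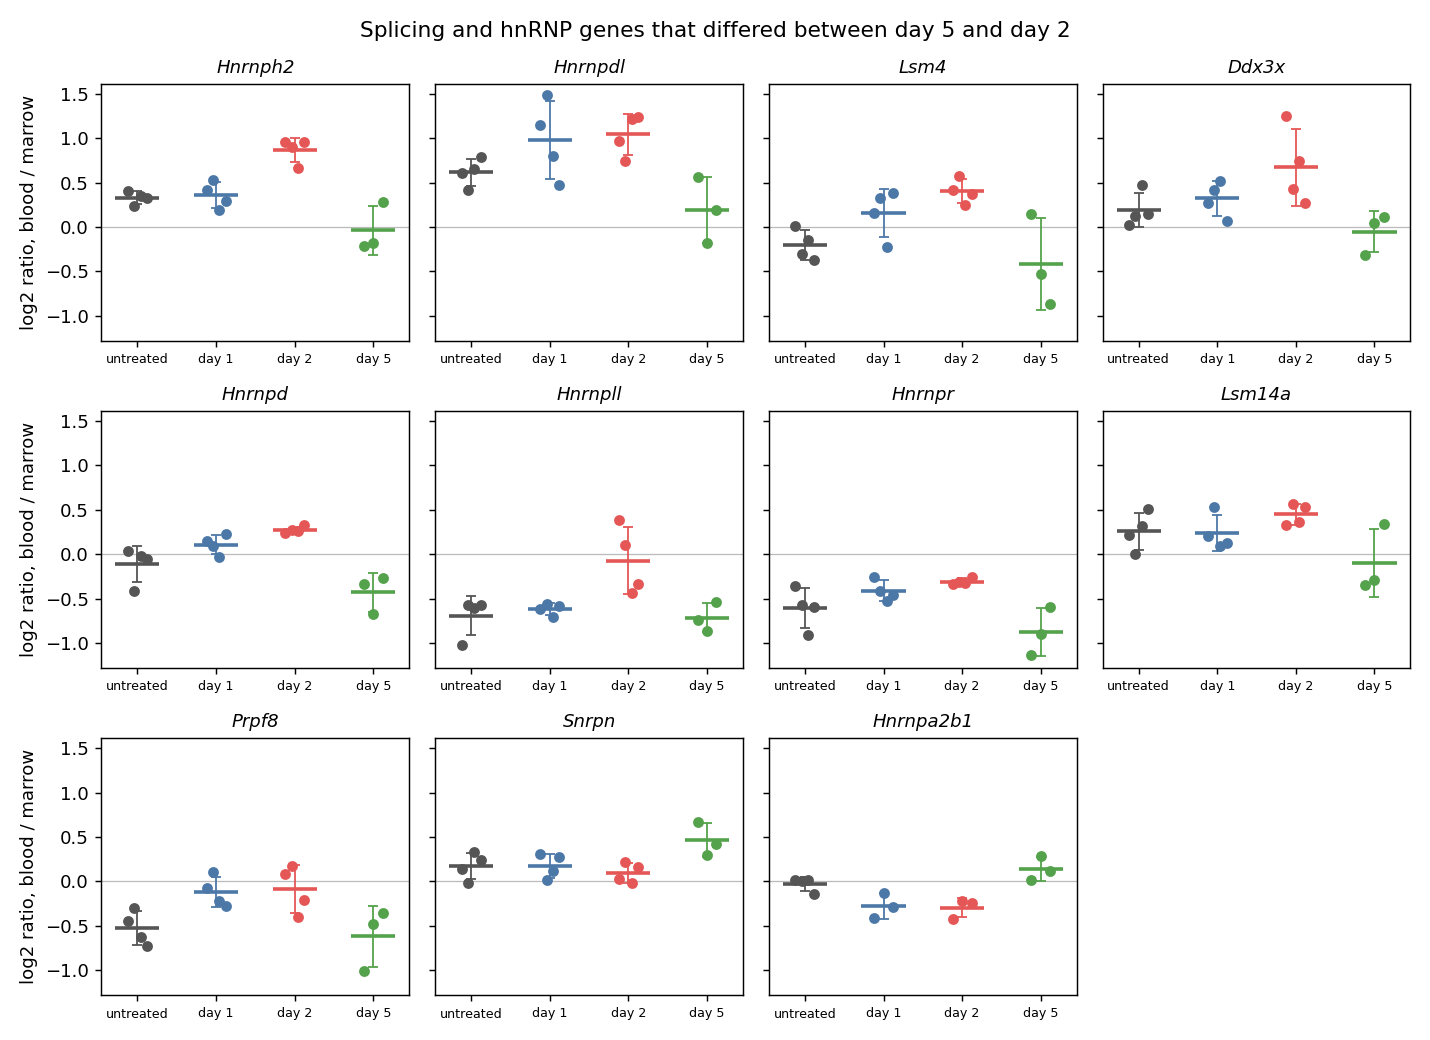
Log2 ratio of blood over marrow (y axis) in each blood sample of the 4 groups (x axis) for the 11 members that differed between day 5 and day 2. Points are samples, thick lines are group means and error bars are SD. The 4 day 2 samples of Hnrnph2 lie between 0.67 and 0.96, above every other sample of that gene, while Snrpn and Hnrnpa2b1 are highest at day 5.

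The promoters of 3 of the called genes are printed because 2 of them (Hnrnph2 and Hnrnpd) were called higher at day 2 and lower at day 5 than at day 2, while the third (Hnrnpa2b1) was called higher at day 5 than at day 2. The sequences are RefSeq's 250 bases before the start site on GRCm38.p6, read in the direction of the gene. Capitals mark the letters CCGGAA, the core bound by ETS factors, and CCAAT, the box bound by NF-Y, each on either strand.

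Hnrnph2, chrX:134600929-134601178, plus strand: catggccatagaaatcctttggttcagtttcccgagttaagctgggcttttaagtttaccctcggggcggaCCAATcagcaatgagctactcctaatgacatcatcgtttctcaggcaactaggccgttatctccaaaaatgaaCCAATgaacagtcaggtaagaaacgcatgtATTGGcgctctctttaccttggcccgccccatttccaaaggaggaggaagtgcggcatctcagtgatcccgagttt
Hnrnpd, chr5:99978939-99979188, minus strand: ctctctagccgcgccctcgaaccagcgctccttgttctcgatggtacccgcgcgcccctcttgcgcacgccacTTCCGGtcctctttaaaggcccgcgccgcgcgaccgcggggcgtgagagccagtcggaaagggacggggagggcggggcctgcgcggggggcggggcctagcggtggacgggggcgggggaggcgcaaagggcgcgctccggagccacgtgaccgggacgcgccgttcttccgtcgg
Hnrnpa2b1, chr6:51469895-51470144, minus strand: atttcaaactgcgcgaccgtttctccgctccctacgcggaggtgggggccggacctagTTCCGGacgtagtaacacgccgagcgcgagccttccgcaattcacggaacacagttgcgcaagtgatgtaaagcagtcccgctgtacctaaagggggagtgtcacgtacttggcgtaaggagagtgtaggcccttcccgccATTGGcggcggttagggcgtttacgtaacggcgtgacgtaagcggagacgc

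The window of Hnrnph2 holds 3 CCAAT boxes and 0 ETS cores, that of Hnrnpd 0 CCAAT boxes and 1 ETS core, and that of Hnrnpa2b1, at the first of its 2 listed starts, 1 of each. Of the 71 genes, 64 matched an entry of the promoter table, and 29 of these (45.3%) held CCGGAA or its reverse complement, against 13.6% of 27025 genes. A gene was counted if the window of any of its listed starts held the letters. The 27025 are all genes with a window, not only those on the array or tested. The box GGGCGG, bound by SP1, was found in 46 (71.9%, against 35.4%), CCAAT in 30 (46.9%, against 37.5%) and TATAAA in 7 (10.9%, against 14.3%). Among the 9 genes called between day 5 and day 2 that have a window, 3 held CCGGAA (33.3%), 5 CCAAT and 5 GGGCGG. Some listed starts only held the letters in Snrpn (CCGGAA and CCAAT) and Hnrnpr (CCAAT). The windows of Hnrnpd and Hnrnpdl lie on the same strand of chromosome 5, 60.3 kb apart. A match is a run of letters and shows no binding.

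At day 2 after the drug, 3 hnRNP transcripts and 1 LSm transcript were higher than in untreated blood, and no member was called lower. Of the 43 members, 4 were called (9.3%), against 12.7% of all features. The 4 that rose compare with 4.83% of features called higher and the 0 that fell with 7.84% called lower. Changes were positive in 32 of 43 members (74.4%, against 58.3% of all features), with a median log2 change of 0.15 against 0.06. In all, 10 members (23.3%) had an unadjusted p under 0.05 in limma, against 26.7% of all features. The day 2 and untreated samples did not overlap in 23.3% of members and in 21.4% of all features.

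Hnrnph2 (gene 56258), an X-linked gene whose protein binds G-rich RNA and regulates splice site choice, changed most clearly. Its log2 ratios were 0.40, 0.24, 0.35 and 0.33 in untreated samples, 0.42, 0.53, 0.19 and 0.29 at day 1, 0.95, 0.90, 0.67 and 0.96 at day 2, and -0.21, -0.18 and 0.28 at day 5. All 4 day 2 samples were above all 11 others. The rise at day 2 against untreated was 0.54 ± 0.12 (SE, limma adjusted p = 0.0088), and the call held in all 22 alternative analyses, which changed the normalization, the filter or the samples used.

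Hnrnpll (gene 72692), the hnRNP L-like regulator of Cd45 splicing, had the largest change at day 2. Its log2 ratios were -1.02, -0.57, -0.60 and -0.57 in untreated samples and 0.38, 0.10, -0.44 and -0.33 at day 2, so the groups did not overlap, although day 2 replicates 3 and 4 lay well below the other 2. The rise was 0.62 ± 0.16 (SE, limma adjusted p = 0.022). Without untreated replicate 1 it was 0.51, and without day 2 replicate 1 or 2 it was 0.47 and 0.56, none of which was called (adjusted p = 0.066, 0.057 and 0.059).

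Lsm4 (gene 50783) encodes a subunit shared by the LSm ring of U6 snRNA and the cytoplasmic LSm ring that promotes mRNA decay. Its log2 ratios were 0.01, -0.31, -0.14 and -0.37 in untreated samples and 0.42, 0.57, 0.25 and 0.37 at day 2, again without overlap. The rise was 0.61 ± 0.19 (SE, limma adjusted p = 0.045). Hnrnpd (gene 11991), also called AUF1, binds AU-rich elements of unstable mRNAs. It had log2 ratios of 0.04, -0.41, -0.02 and -0.06 in untreated samples and 0.24, 0.27, 0.26 and 0.32 at day 2, where the 4 samples were nearly equal. The rise was 0.39 ± 0.12 (SE, limma adjusted p = 0.046).

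The calls of Lsm4 and Hnrnpd lay close to the threshold. Both were lost on leaving out any 1 of 3 untreated samples (numbers 2, 3 and 4), of 3 day 1 samples (numbers 1, 2 and 4) or of the 4 day 2 samples, with changes of 0.55 to 0.66 for Lsm4 (adjusted p up to 0.12) and 0.29 to 0.42 for Hnrnpd (adjusted p up to 0.13). Accordingly, between 1 and 4 members were called at day 2 when 1 sample was left out, with 1 call where day 2 replicate 1 or 2 was missing. The count was 2 where the missing sample was number 2, 3 or 4 of the untreated group, number 1, 2 or 4 of day 1 or number 3 of day 2.

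Between day 2 and day 5 most calls were downward: 9 members were lower at day 5 and 2 were higher. The 11 calls (25.6% of 43) were as frequent as among all features (25.5%). The 9 lower members (20.9%) compare with 12.7% of features called lower, and the 2 higher members (4.65%) with 12.8% called higher. The median change was -0.17 over members and -0.07 over all features, and 12 of 43 members (27.9%) had a positive change, against 43% of all features. Samples of day 5 and day 2 without overlap were no more frequent among members (25.6%) than among all features (30.4%). This comparison uses the same day 2 samples as the comparison of day 2 with untreated, so the rise at day 2 and the fall to day 5 are not independent. Without day 5 replicate 1, 6 of 43 members were called, against 18.4% of all features. The members' median was then -0.05, near the -0.06 of all features in that setting.

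Of the members lower at day 5, Hnrnph2 had the lowest adjusted p. Its change from day 2 to day 5 was -0.91 ± 0.13 (SE, limma adjusted p = 1.47e-04). Hnrnpd fell by 0.70 (limma adjusted p = 9.58e-04), with log2 ratios of -0.33, -0.68 and -0.27 at day 5, all below the 4 values of day 2. Lsm4 fell by 0.82 (limma adjusted p = 0.0073), with 0.15, -0.53 and -0.87 at day 5. The day 5 samples of Lsm4 were far apart, but none reached the lowest day 2 value of 0.25. These 3 calls held in all 22 alternative analyses.

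Hnrnpdl (gene 50926), a close relative of Hnrnpd, had log2 ratios of 0.97, 0.75, 1.21 and 1.24 at day 2 and 0.56, -0.18 and 0.19 at day 5, a change of -0.85 (limma adjusted p = 0.0097). Its day 1 samples, at 1.15, 1.48, 0.80 and 0.47, covered the day 2 range. Hnrnpr (gene 74326), an hnRNP related to Syncrip, had -0.34, -0.31, -0.33 and -0.26 at day 2 and -1.13, -0.90 and -0.59 at day 5, a change of -0.57 (limma adjusted p = 0.0079). Hnrnpll changed by -0.64 (limma adjusted p = 0.015), to -0.74, -0.86 and -0.54. The day 2 and day 5 samples did not overlap for any of these 3 genes. Without day 5 replicate 2, Hnrnpdl changed by -0.66 and Hnrnpll by -0.57, and without day 5 replicate 1, Hnrnpr changed by -0.44, none of them called (adjusted p = 0.060, 0.062 and 0.053).

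Ddx3x (gene 13205), an X-linked helicase of translation initiation, changed from day 2 to day 5 by -0.73 ± 0.20 (SE, limma adjusted p = 0.016). Its averaged log2 ratios were 1.25, 0.43, 0.74 and 0.27 at day 2 and -0.32, 0.05 and 0.11 at day 5, but the day 2 spread came from its 2 probes. One probe had values in all 15 samples and read 1.25, 0.97, 0.74 and 1.07 at day 2 and -0.02, -0.06 and 0.63 at day 5, a change of -0.82 (limma adjusted p = 0.0045). The other had values in 12 samples, of which day 2 held 2, -0.12 and -0.53, within its untreated range of -0.40 to 0.24 or below it. At day 5 this second probe read -0.61, 0.15 and -0.40, on both sides of its day 2 values. The probes therefore disagreed at day 2, and the fall to day 5 was seen in the complete probe only. The second probe had no value in day 2 replicates 1 and 3, where the average is the complete probe alone. With the complete probe alone, Ddx3x also rose from untreated to day 2, by 0.58 (limma adjusted p = 0.040), whereas the average had a change of 0.48 (adjusted p = 0.11). Without day 5 replicate 1 the average changed by -0.59 from day 2 to day 5 and was not called (adjusted p = 0.085).

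Lsm14a (gene 67070), a P-body protein that represses translation, and Prpf8 (gene 192159), the U5 snRNP protein at the catalytic centre of the spliceosome, were the other members lower at day 5. Lsm14a read 0.33, 0.56, 0.37 and 0.53 at day 2 and -0.34, -0.29 and 0.34 at day 5, a change of -0.54 (limma adjusted p = 0.028). Prpf8 read 0.09, 0.17, -0.41 and -0.21 at day 2 and -1.01, -0.48 and -0.36 at day 5, a change of -0.53 (limma adjusted p = 0.038). In both genes the groups overlapped. Lsm14a was not called without day 2 replicate 2 or 4 or day 5 replicate 1 or 2 (changes of -0.51, -0.52, -0.42 and -0.45). Prpf8 was not called without day 2 replicate 1 or 2 or day 5 replicate 1 or 2 (changes of -0.47, -0.44, -0.33 and -0.60).

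Hnrnpa2b1 and Snrpn went the other way. Hnrnpa2b1 (gene 53379), an abundant hnRNP of splicing and mRNA transport, read 0.02, 0.00, 0.02 and -0.15 in untreated samples, -0.42, -0.13 and -0.29 in 3 day 1 samples, -0.42, -0.22 and -0.24 in 3 day 2 samples and 0.02, 0.28 and 0.12 at day 5. The rise from day 2 to day 5 was 0.43 ± 0.12 (SE, limma adjusted p = 0.019). All day 5 samples were above all day 2 samples. The change was 0.37 without day 2 replicate 2 and 0.36 without day 5 replicate 2, neither of them called (adjusted p = 0.064 and 0.071). Over the 8 samples in which both technical replicates of this gene had a value, they differed by a median of 0.27.

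Snrpn (gene 20646), the imprinted gene for SmN, a relative of the Sm ring protein encoded by Snrpb, read 0.03, 0.22, -0.02 and 0.17 at day 2 and 0.67, 0.29 and 0.43 at day 5. The rise was 0.37 ± 0.12 (SE, limma adjusted p = 0.042), without overlap. Of 22 alternatives, 12 lost the call, 9 of them by leaving out a sample: numbers 1 and 4 of the untreated group, 3 and 4 of day 1, 1, 3 and 4 of day 2, and 1 and 3 of day 5. The changes under the 12 lay between 0.26 and 0.39, with adjusted p up to 0.19. Snrpb itself had a change of 0.07 (adjusted p = 0.76). Whether the probes separate such close relatives (Snrpn and Snrpb, Hnrnpd and Hnrnpdl, Hnrnph2 and Hnrnph1) was not tested.

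**Figure D2:**
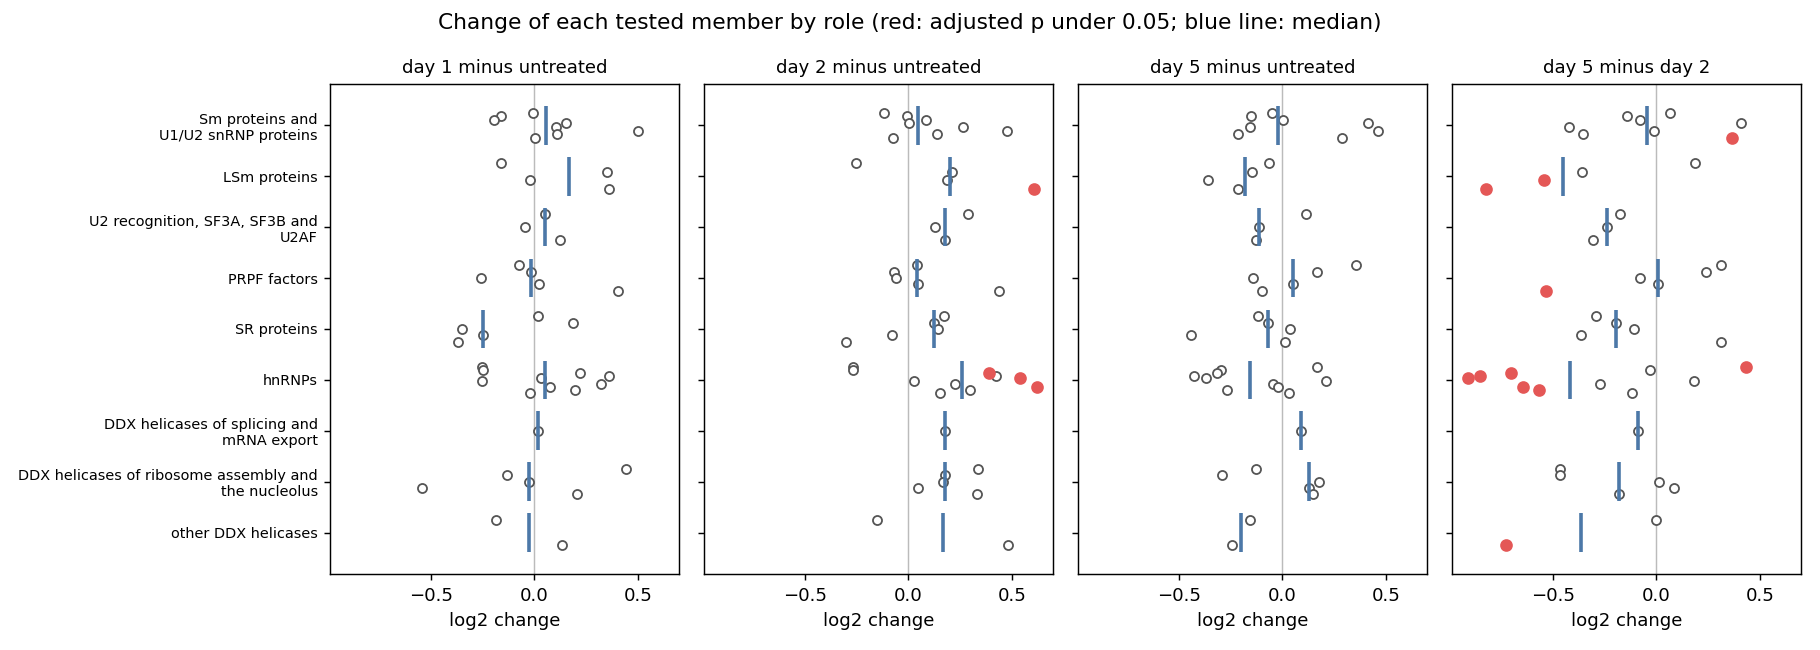
Log2 change (x axis) of each of the 43 tested members in 4 comparisons (panels), by role (y axis). Filled red points are called members, open points the others, and blue lines the median of each role. Red points lie in the hnRNP row on both sides of 0, with 5 lower and 1 higher at day 5 against day 2.

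At day 1 and at day 5 no member was called against untreated blood. At day 1, limma called 0 of 43 members, against 4.6% of all features (2.29% higher and 2.32% lower), and 5 members (11.6%) had an unadjusted p under 0.05, against 21.1% of features. The members' median log2 change was 0.02 and that of all features 0.03, with members ranging from -0.54 to 0.50. The ends of this range were Ddx54, a nucleolar helicase, with -0.54 (adjusted p = 0.18), and Snrpe, an Sm ring protein, with 0.50 (adjusted p = 0.24). Ddx21, a nucleolar helicase of ribosome synthesis, had a change of 0.44 ± 0.17 (SE, adjusted p = 0.15), and its 4 day 1 samples (0.18 to 0.51) were above all untreated ones (-0.34 to 0.13). The 95% interval of the Ddx21 change ran from 0.08 to 0.80. Groups without overlap at day 1 against untreated were found in 11.6% of members and in 18.3% of all features.

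At day 5 against untreated, limma again called 0 of 43 members, against 1.09% of all features (0.261% higher and 0.829% lower). An unadjusted p under 0.05 was found for 6 members (14%, against 17.4% of features). Groups without overlap were found in 6.98% of members and in 13.6% of all features. The median change was -0.07 over members and 0.00 over all features, and 39.5% of the members' changes were positive, against 50.6% of all features. Hnrnph2 had a change of -0.37 (adjusted p = 0.19) and Hnrnpd one of -0.31 (adjusted p = 0.24). Without day 5 replicate 3, 2 members were called: Hnrnph2 with -0.53 (adjusted p = 0.040) and Srsf6, an SR protein, with -0.69 (adjusted p = 0.041). With all samples Srsf6 had a change of -0.44 (adjusted p = 0.25).

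**Figure D3:**
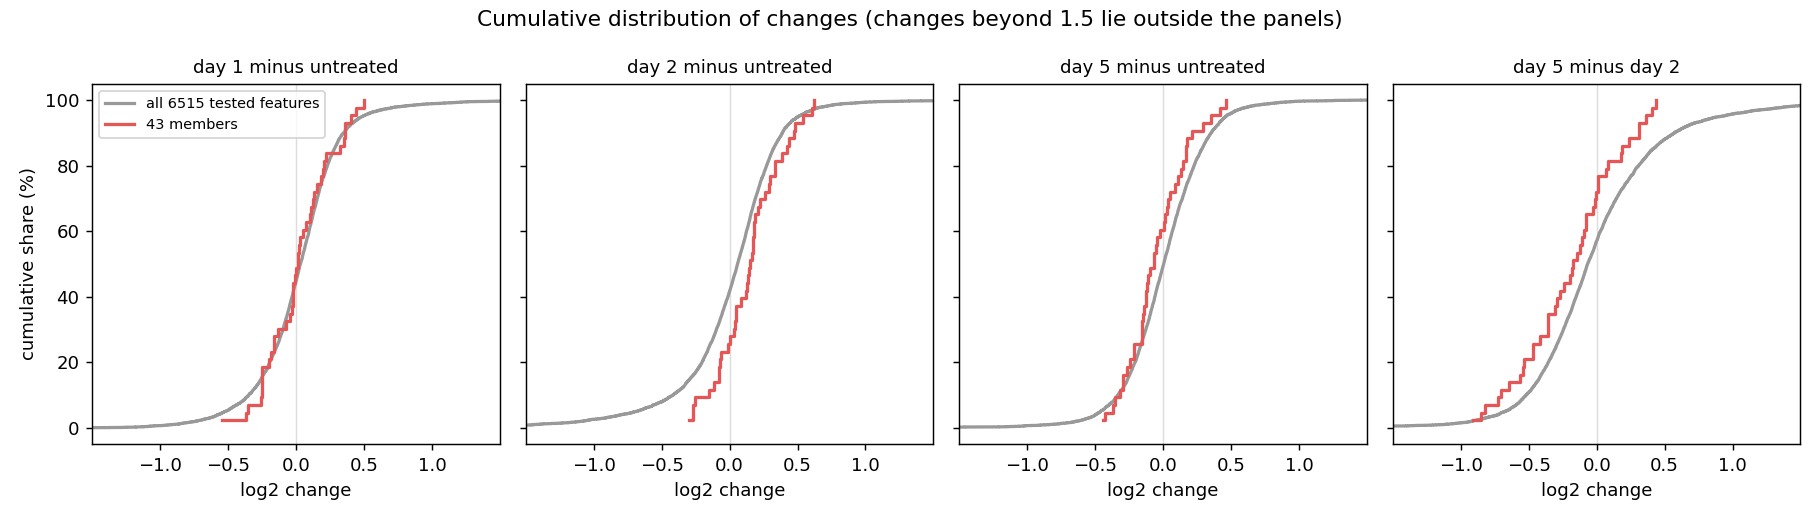
Cumulative share in percent (y axis) of log2 changes (x axis) for the 43 members (red) and all 6515 tested features (grey) in 4 comparisons. The members' median is 0.15 at day 2 against 0.06 for all features and -0.17 at day 5 against day 2 where all features have -0.07.

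By role, the Sm and U1 or U2 snRNP genes held 1 called gene. Of the 10 Sm and U1 or U2 snRNP genes on the array, 8 were tested, and Snrpn was the only one called, in day 5 against day 2. Their median change was 0.04 at day 2 and -0.02 at day 5 against untreated. Snrpd1, an Sm ring protein, read -0.05, 0.32 and 0.17 at day 5, its lowest value just above the highest of the untreated range (-0.50 to -0.05), a change of 0.41 that was not called (adjusted p = 0.21). Of 9 LSm genes 4 were tested: Lsm4 and Lsm14a were called as above. Lsm1, the subunit particular to the cytoplasmic decay ring, had a change of -0.25 at day 2 (adjusted p = 0.16), opposite in sign to Lsm4.

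None of the 3 tested genes of branch site and 3′ splice site recognition was called. Sf3b1, the largest SF3B subunit, had a change of 0.13 at day 2 (adjusted p = 0.49), and U2af1, the small U2AF subunit, one of 0.18 (adjusted p = 0.45). Of 5 tested PRPF genes only Prpf8 was called. Its change at day 2 against untreated was 0.44 (adjusted p = 0.098), and its day 1 samples (-0.28 to 0.10) lay above all untreated ones (-0.73 to -0.30). Prpf6, a scaffold of the tri-snRNP, had changes between 0.01 and 0.05 in the 4 comparisons.

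No SR protein gene was called in any of the 4 comparisons. Of 8 on the array, 5 were tested, with medians of -0.25 at day 1 and 0.12 at day 2. Srsf2 had an averaged change of 0.18 at day 1 (adjusted p = 0.65). One of its 2 probes had a value in 1 untreated and 1 day 2 sample only (0.73 and 0.71), far above the other probe there (-1.03 and -0.51), so the average was raised in those samples alone. With the complete probe Srsf2 read -0.71, -1.03, -0.74 and -0.87 in untreated samples and -0.36, -0.34, -0.64 and -0.39 at day 1. These groups did not overlap, and the change was 0.40 ± 0.13 (SE, limma adjusted p = 0.090).

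Of the 13 hnRNP genes 10 were tested. At day 2, 3 were called higher, against 4.83% of all features. At day 5 against day 2, 5 were called lower and 1 higher, against 12.7% and 12.8% of all features. Their median change was 0.26 at day 2 against untreated (0.06 over all features) and -0.42 at day 5 against day 2 (-0.07 over all features). The family was not uniform. Hnrnpu, a scaffold protein of the nuclear matrix, had changes between -0.12 and 0.15 in the 4 comparisons. Hnrnpab, a relative of Hnrnpd, had negative changes in all 4, from -0.30 to -0.03, none of them called. Hnrnpk, an abundant poly(C)-binding hnRNP, read 1.44, 0.05 and 0.48 in 3 day 2 samples but 0.85, 0.84 and 0.83 at day 5. Its day 2 values lay on both sides of the untreated range, and the change at day 2 was 0.03 ± 0.27 (SE, limma adjusted p = 0.96).

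Of the DDX helicases, 8 of 17 were tested, and Ddx3x was the only one called. Ddx42, an SF3B-associated helicase, was the only tested member of those placed in splicing or export and had changes between -0.09 and 0.18. The 5 tested helicases of ribosome assembly and the nucleolus all had positive changes at day 2 (0.05 to 0.34), none of them called. Ddx28, a mitochondrial helicase, had changes between -0.19 and 0.00.

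The order of the group means restates the same values as the calls and gives no separate support for them. Day 2 had the highest and day 5 the lowest of the 4 means in 15 of 43 members (34.9%), against 20% of all features, an arrangement singled out after the values were seen. The 15 included all 9 genes that were lower at day 5 than at day 2, for which a fall between these days was already required. The others were Sf3b1, U2af1, Srsf10, Snrpd2, Snrpg and Ddx47, which were not called. The reverse order, with day 5 highest and day 2 lowest, held for Snrpn, Hnrnpa2b1 and Prpf4 (6.98%, against 16.9% of features).

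In untreated mice, splicing and hnRNP transcripts tended to lie lower in blood than in marrow, relative to other transcripts. The untreated mean was below 0 in 33 of 43 members (76.7%), against 52.4% of features, with a median of -0.10 against -0.02. All untreated values were below 0 in 16 members (37.2%, against 28.4% of features) and above 0 in 7 (16.3%, against 27.2%). Levels ran from -0.90 for Srsf10, an SR-like splicing regulator, to 0.63 for Hnrnpk and 0.62 for Hnrnpdl. By role, SR protein genes had the lowest median level among roles with more than 1 tested gene (-0.45), and hnRNPs stood at -0.02. The reference carries its own error in these levels, which were not tested. Per the labels blood was in Cy5 and marrow in Cy3, so a dye effect of a probe cannot be told apart from a difference between blood and marrow.

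Further genes of the pathway were read from 4 lists, and no test compared these lists with the members. For scale, 4.6% of all features were called at day 1, 12.7% at day 2 and 1.09% at day 5 against untreated. At day 5 against day 2, 25.5% were called, 12.7% lower and 12.8% higher, with a median of -0.07. Of 23 tested other spliceosome components, 0 were called at day 1 or day 2, 1 was lower at day 5 against untreated, and 6 were lower and 0 higher at day 5 against day 2, with a median of -0.29. The 6 were Acin1, a splicing factor also linked to chromatin condensation in apoptosis (-0.94, limma adjusted p = 2.45e-05), Snrnp40 of U5 (-0.82), Cwc15 (-0.62), the helicase Dhx16 (-0.55), the tri-snRNP protein Sart1 (-0.51) and Smu1 (-0.42). Acin1 was also the gene lower at day 5 than in untreated blood (-0.65, limma adjusted p = 0.0081). At an unadjusted p under 0.05 Acin1 was also higher at day 2 (0.28, adjusted p = 0.084).

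Of 17 tested other splicing regulators and RNA-binding proteins, Rbm39 and Rbm10 were higher at day 2 (0.48 and 0.38) and lower at day 5 than at day 2 (-0.50 and -0.61), as Hnrnph2, Hnrnpll and Hnrnpd were. Qk, the quaking protein, and Pcbp1, also named hnRNP E1, were lower at day 2 and higher again at day 5. Pcbp1 was also lower at day 1 (-1.07, limma adjusted p = 0.020). It changed by -2.20 at day 2 (limma adjusted p = 3.77e-05) and by 2.76 from day 2 to day 5, further than any member. Of 5 tested SR protein kinases, which include Prpf4b, 0 were called. Of 9 tested snRNP assembly genes, which include Lsm11, Wdr77 was lower at day 1 (-0.54), and at day 5 against day 2 Clns1a (-0.48) and Prmt5 (-0.45) were lower and Larp7 (0.54) higher. The lists were chosen with earlier results of these data known.

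Markers of blood cell types moved over the same days. Of the mature neutrophil list, 7 of 15 genes were tested: 5 were higher at day 2 than in untreated blood, and 4 were lower at day 5 than at day 2. Their mean log2 ratio ran from -0.77 to -0.33 over untreated samples, from -0.55 to -0.18 at day 1, from 0.10 to 0.72 at day 2 and from -1.08 to -0.58 at day 5. The day 2 samples lay above all others. Within this list Cd177 went the other way. It was lower at day 1 (-1.25, limma adjusted p = 0.0095), and its changes of -0.62 at day 2 and 0.60 from day 2 to day 5 were not called. Among the 10 tested hnRNP genes, 5 had their highest mean at day 2 and their lowest at day 5, against 20% of all features. These are the same 5 that were called lower at day 5 than at day 2. The order was singled out after the values were seen and gives no separate support. The monocyte list (6 of 15 tested) moved opposite to most of the neutrophil list. Against untreated blood 3 of its genes were lower at day 1 and 5 at day 2, and 4 were higher at day 5 than at day 2. The mean of its 4 complete genes fell from a range of 0.66 to 1.20 in untreated samples to one of -0.24 to -0.15 at day 2. Of the erythroid list (6 of 15 tested), Alas2 (-2.83) and Bnip3l (-0.60) were lower at day 2 and higher at day 5 than at day 2 (3.57 and 1.12), while Klf1 and Ermap had day 2 changes of 1.31 and 0.48 that were not called. Of the platelet list (6 of 15 tested), 4 genes were higher at day 1, 0 were called at day 2 and 1 was higher at day 5 than in untreated blood.

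Of the B cell list (8 of 15 tested), 1 was lower at day 1, 2 were lower at day 2 and 3 at day 5 than in untreated blood, and at day 5 against day 2, 4 were lower and 2 higher. Of the NK and cytotoxic cell list (7 of 15 tested), 1 was higher at day 1, 3 were lower at day 2 and 2 at day 5 than in untreated blood, and 1 was lower at day 5 than at day 2. Of the T cell list (4 of 15 tested), Cd4 alone was called, higher at day 2 (0.53) and lower at day 5 than at day 2 (-0.58). The other tested genes, Cd8b1, Cd28 and Lat, had negative changes at day 2 that were not called (-0.47, -0.23 and -0.67). Of the cell division list (11 of 20 tested), Smc4 (0.51) and Cks2 (0.78) were higher at day 2 and lower at day 5 than at day 2 (-0.84 and -0.74), Nusap1 was lower at day 2 (-1.23), and Nusap1 (1.90) and Plk1 (1.32) were higher at day 5 than at day 2. What part these cell types had in the members' values was not tested.

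**Figure D4:**
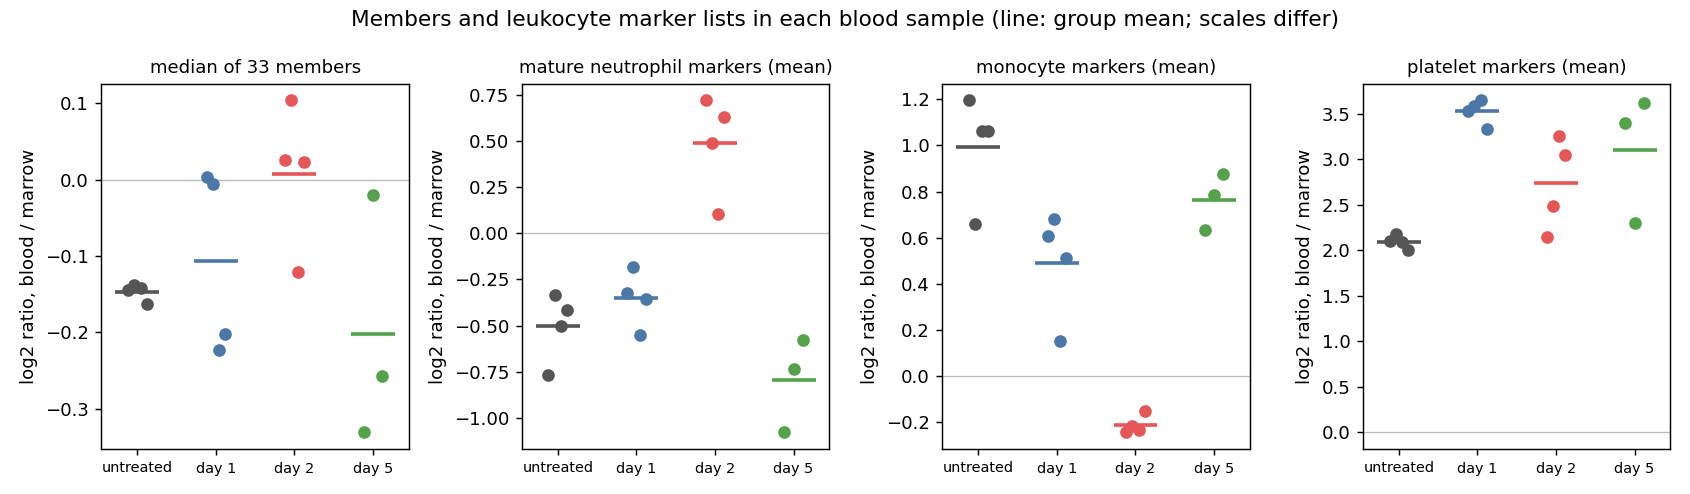
Log2 ratio of blood over marrow (y axes, scales differ) in each blood sample of the 4 groups (x axes): the median of the 33 members with a value in every sample, and the means of 3 marker lists. Points are samples and lines are group means. The members' median lies between -0.12 and 0.10 at day 2 and between -0.33 and -0.02 at day 5, and the neutrophil markers are highest at day 2.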

How the data were processed

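Peripheral blood leukocyte RNA of 15 samples was measured in 30 columns of 2-colour arrays. Per the labels' protocols, amplified RNA was labelled with Cy5 (blood) or Cy3 (marrow reference). The authors deposited log ratios, taken here as log2 of Cy5 over Cy3. The base of the logarithm, the scanner, the normalization and the filter that left 5314 to 9398 of 13443 probes with a value per column are not stated in the labels or files. If the base is not 2, every printed log2 value is in that other unit.

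Technical replicates (r = 0.829 to 0.957 across probes) were averaged, then probes of a symbol. Platform annotation gave 10032 probes with 1 symbol, 170 with several and 3241 with none, and 0 symbols changed against the gene table. limma 3.58.1 in R 4.3.3 was fitted to all 6515 features with 1 mean per group, with Benjamini-Hochberg adjustment over all features of a comparison. The fit was tested on simulated data. SD is over samples and SE from the fit. P-values measure the spread between these samples. Missing values were left out of a gene's fit, not imputed.

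Members and lists were chosen with earlier results of these data known. The rule for named genes took the called members (up to 12 per direction and comparison, by size of change), well-known core members of each role, and members whose probes differ in sign. The other members named (such as Ddx54, Snrpe, Srsf6, Prpf6, Hnrnpab, Ddx28, Ddx42 and Snrpb) and the genes named from the further pathway lists fall outside it and were chosen after their values were seen. Alternatives were quantile normalization, no filter, complete features, a replicate block, each technical replicate alone, a robust trended prior, single probes and leaving out each sample. The replicate numbers were not taken as pairs. Deviations from group means of samples with the same number correlated with r between -0.346 and 0.217 (median -0.04). For samples with different numbers r reached -0.402 and 0.410 (median 0.003). With 3 or 4 samples per group, this cannot exclude a factor shared by samples of the same number.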

Additional observations from a re-analysis of the deposited data

Results flagged for a closer look

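In 2 of 31 groups of 4 values examined over the 11 called members, 1 sample stood far from the rest, and chance gives about 1 in 20. Untreated replicate 1 had the lowest Hnrnpll log2 ratio, -1.02, where the other 3 lay between -0.60 and -0.57. Untreated replicate 4 had the lowest Hnrnpa2b1 log2 ratio, -0.15, where the others lay between 0.00 and 0.02.

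The change from untreated differed between day 5 and day 2 in 11 members. The untreated mean cancels in this difference, so these are the values and calls of the comparison of day 5 with day 2 in the report and no further result. It was lower at day 5 for Hnrnph2 (-0.91), Hnrnpdl (-0.85), Lsm4 (-0.82), Ddx3x (-0.73), Hnrnpd (-0.70), Hnrnpll (-0.64), Hnrnpr (-0.57), Lsm14a (-0.54) and Prpf8 (-0.53), and higher for Hnrnpa2b1 (0.43) and Snrpn (0.37).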

How the results depend on the processing

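At day 1 the count of called members was 0 in the 22 alternatives run. At day 2 it was 4, and 5 with quantile normalization, 2 with no filter on missing values, 2 with technical replicate 1 alone and 2 with technical replicate 2 alone, and from 1 to 4 with 1 sample left out; the cause was not tested. At day 5 against untreated it was 0 in all but 1 alternative, with 0 to 2 calls when 1 sample was left out. At day 5 against day 2 it was 11, and 6 to 12 with 1 sample left out. The members' median change there ran from -0.221 to -0.0543 over the left-out samples. The F test count was 7, and 4 to 9 with 1 sample left out.

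With the replicate number as a block (replicate block) the F test called 4 members, day 2 against untreated 3 and day 5 against day 2 9. Under it Hnrnpd at day 2 (adjusted p = 0.052) and Lsm14a and Hnrnpa2b1 at day 5 against day 2 (both adjusted p = 0.061) were not called. Only 4 of 15 samples correlated best with a sample of their own number, so the numbers are not taken as pairs. The calls of Hnrnph2 in both comparisons, and of Hnrnpd and Lsm4 in day 5 against day 2, were kept in all 22 alternatives. No value that was called in either setting changed sign. Calls gained under an alternative were, at day 2, Prpf8 with quantile normalization (0.48, adjusted p = 0.039) and Ddx3x without day 2 replicate 4 (0.62) or with its complete probe alone, and at day 5 against untreated the 2 given in the report. At day 5 against day 2 they were Ddx21, U2af1 and Snrpd2 without day 5 replicate 2 (-0.69, -0.48 and -0.76), Srsf6 without day 5 replicate 3 (-0.61), Hnrnpk and Prpf4 without day 2 replicate 2 (0.57 and 0.28), Snrpd1 without day 2 replicate 4 (0.51), Ddx5 with no filter (-1.17) and Ddx47 in 4 alternatives (-0.69 without day 5 replicate 3 and -0.47 in the other 3: complete features, robust trended prior and without day 1 replicate 2). Signal over background is not known for these files.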

Other observations

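Of the 28 members left out of the tests, 9 had no value in any sample, among them Srsf3, Hnrnpc and Hnrnph1, and 19 had values in too few samples. Ddx5, a helicase and splicing co-regulator, read -0.20, 0.12 and 0.17 in 3 untreated samples, -0.16, -0.02 and 0.49 in 3 day 1 samples, 0.85, 1.19 and 0.35 in 3 day 2 samples and -0.38 in its single day 5 sample. All 3 day 2 values lay above the untreated and day 5 values, and the highest day 1 value lay above the lowest day 2 value. Srsf5, an SR protein, read -0.04 and -0.07 in 2 untreated samples, 1.76 and 0.67 in 2 day 1 samples, 1.56 and -0.21 in 2 day 2 samples and 0.05, 0.07 and 0.36 at day 5. Both genes were picked after their values were seen.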
